A study of Mus musculus with 3 samples.

Results

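Of the promoter fragments captured in mouse erythroid cells, 987 carried the names of 2 or more genes and are called shared fragments here. They were found from the names in the deposited list of captured fragments: names were divided into their joined parts, single letters were dropped, and a fragment with at least 2 gene names was taken as shared. The list held 7197 fragments, of which 1009 met this rule. Left out were 21 shared fragments on chromosome X and 1 without contacts. Of the 987, 975 carried 2 gene names and 12 carried 3. The comparison group was the 5988 fragments off chromosome X that carried 1 gene name.

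A promoter is the stretch of DNA at which transcription of a gene starts. In mammals many genes lie head to head, so that their starts sit close together on opposite strands and are read away from each other, and such a pair is called divergent. The stretch between the starts often lies in a CpG island, and pairs of this kind are common among genes for DNA repair, mitochondrial proteins and core histones. In a chromosome conformation assay the unit is a restriction fragment, so 1 captured fragment that holds both starts gives 1 contact profile. Such a profile cannot be divided between the 2 genes.

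The cells came from spleens of F1 hybrid mice of a C57BL/6 by CBA/J cross. Phenylhydrazine, which destroys red cells and so drives their replacement, had been given in 3 doses, 12 h apart, at 40 mg per g as the labels give it, and the mice were killed on day 5. Cells with the surface marker ter119, which marks maturing red cells, were selected and fixed. Contacts were then measured by nuclear-titrated Capture-C, in which DNA is cut with DpnII, ligated within nuclei and enriched with probes for the chosen fragments. All 3 libraries belonged to this 1 group, and no control or other cell type was compared. The values hold no RNA, so the cell type could not be checked against its markers. Because the value columns are not named by replicate, letters a to c stand for the libraries in column order.

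The 3 libraries held 18230099, 34428035 and 34233560 cis events, an event being 1 unique ligation between a captured fragment and another fragment of its chromosome. Over 20 distance bins per captured fragment, libraries b and c differed by little more than counting error, with a chi-square of 1.02 per degree of freedom, against 1.22 for libraries a and b. The totals per captured fragment gave 1.48 for b and c and 88.8 for a and b. The labels list the 3 as replicates. Counting libraries b and c as 1 sample rests on the closeness of their counts alone. On that basis each mean ± SD over libraries has n = 2, library a and the mean of b and c. Nothing in the labels ties the libraries to separate mice. Below, p-values come from a linear fit across captured fragments with errors grouped by 1 Mb of chromosome. They describe how fragments differed in these libraries, were adjusted over 14 measures, and do not measure the spread between mice.

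Most shared fragments held a divergent pair. For 855 of the 987, both named genes were found in the mm9 gene annotation within 5 kb of the fragment. Of these, 746 were divergent, 98 had starts that overlapped on opposite strands, so that each gene was read across the start of the other, and 11 lay on the same strand. The divergent starts were a median of 160 bases apart (quartiles 90.0 and 271 bases), and 587 of the 746 lay within 300 bases. Overlapping starts were a median of 200.5 bases apart. Where a gene had several annotated starts inside a fragment, that nearest the middle of the fragment was used. The distances and the orientation classes depend on this choice. Both starts lay inside the fragment for 645 fragments. Both genes coded for protein in 704 of the 855 pairs. Among the partners that did not, 108 were annotated as lincRNA, 25 as processed transcript and 10 as miRNA.

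**Figure D1:**
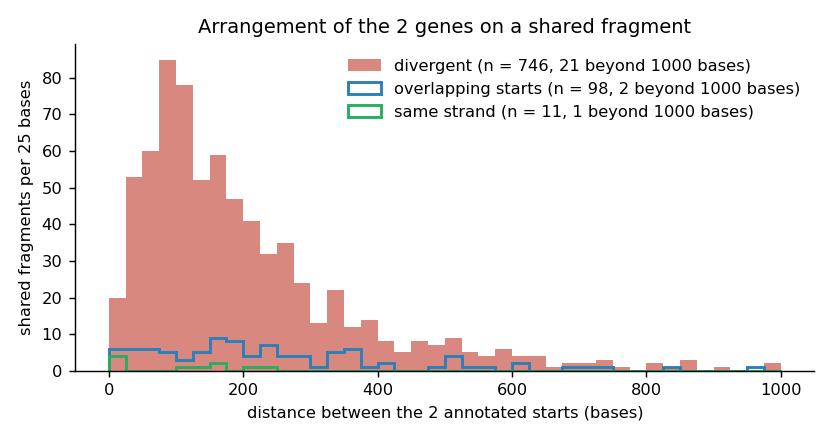
Distance in bases between the 2 annotated starts of a shared fragment, as the number of fragments in each 25 bases, for divergent pairs (filled), overlapping starts and same-strand pairs (lines). Divergent pairs peak near 100 bases and thin out beyond 300.

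The names did not record every pair. Annotated starts of 2 or more protein-coding genes lay inside 557 of the 987 shared fragments (56.4%), and inside 177 of the 5988 single-gene fragments (2.96%). Single-gene fragments were kept as named.

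The stretches between the 2 starts are shown for divergent pairs in which no annotated exon enters the stretch, so that only the DNA upstream of both genes is printed. All are read from mm9 on the plus strand, with the gene on the left read leftward and the gene on the right read rightward. The order of the names in a label does not tell which gene is on the left. Capitals mark matches on either strand to 9 short motifs, which are the CCAAT box, the TATA box TATAAA, the GC box GGGCGG, the ETS motif CCGGAAG, the NRF1 core GCGCATG, the YY1 motif AAGATGG, the E-box CACGTG, the CRE TGACGTC and the GATA motif AGATAA. The first 4 are pairs of housekeeping genes, with Sdhd, Wrap53, Rps18 and Acot13 on the left. Timm8b, for a mitochondrial import protein, and Sdhd, for a subunit of succinate dehydrogenase, lie at chr9:50411955-50412005. Trp53, for the tumour suppressor p53, and Wrap53, for a telomerase protein, lie at chr11:69393758-69393860. Rps18, for a ribosomal protein, and Vps52, for a tethering factor of the Golgi, lie at chr17:34092663-34092756. Acot13, for a thioesterase, and Tdp2, for a DNA repair phosphodiesterase, lie at chr13:24923387-24923547.
Timm8b_Sdhd: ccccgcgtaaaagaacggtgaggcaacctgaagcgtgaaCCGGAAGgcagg
Trp53_Wrap53: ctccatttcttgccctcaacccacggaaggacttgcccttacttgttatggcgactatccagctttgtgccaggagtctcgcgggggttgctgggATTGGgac
Rps18_Vps52: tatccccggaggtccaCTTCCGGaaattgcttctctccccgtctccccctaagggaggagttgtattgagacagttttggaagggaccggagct
Acot13_Tdp2: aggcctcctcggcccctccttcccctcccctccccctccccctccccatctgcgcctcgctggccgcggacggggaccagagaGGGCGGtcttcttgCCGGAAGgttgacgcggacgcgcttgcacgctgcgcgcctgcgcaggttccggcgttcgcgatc

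The next 3 lie between an H2A and an H2B histone gene, and are shown because their fragments had several of the called contacts below. They are at chr13:21845777-21845991, chr13:22134819-22135082 and chr13:23666066-23666249, with Hist1h2ak, Hist1h2ag and Hist1h2bf on the left. Each holds 3 to 5 CCAAT boxes. They hold 3, 10 and 7 CpG dinucleotides in 215, 264 and 184 bases. Among the housekeeping pairs, the 51 bases between Timm8b and Sdhd hold 5 and the 161 bases between Acot13 and Tdp2 hold 20. The 103 bases between Trp53 and Wrap53 hold 4, and the 94 bases between Rps18 and Vps52 hold 4. Both of these lie close in density to the histone stretches with 10 and 7.
Hist1h2ak_Hist1h2bn: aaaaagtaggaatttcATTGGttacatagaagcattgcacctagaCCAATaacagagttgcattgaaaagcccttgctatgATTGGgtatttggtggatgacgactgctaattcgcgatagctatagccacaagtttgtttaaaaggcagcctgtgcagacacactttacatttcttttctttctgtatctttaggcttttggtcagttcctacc
Hist1h2bj_Hist1h2ag: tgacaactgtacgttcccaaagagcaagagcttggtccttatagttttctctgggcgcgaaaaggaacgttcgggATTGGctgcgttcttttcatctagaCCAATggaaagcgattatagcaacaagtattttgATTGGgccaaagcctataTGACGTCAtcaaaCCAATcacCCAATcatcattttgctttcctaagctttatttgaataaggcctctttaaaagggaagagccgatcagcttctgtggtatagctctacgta
Hist1h2ad_Hist1h2bf: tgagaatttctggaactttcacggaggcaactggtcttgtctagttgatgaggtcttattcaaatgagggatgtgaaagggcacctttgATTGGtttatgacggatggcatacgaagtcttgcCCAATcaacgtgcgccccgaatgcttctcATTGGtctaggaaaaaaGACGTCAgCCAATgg

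Sequence differed between the groups in both CpG density and 1 motif. Shared fragments held a median of 6.98 CpG per 100 bases, against 6.45 in single-gene fragments, a difference of 0.572 ± 0.097 (SE, n = 987 and n = 5988; adjusted p = 6.2e-08). This difference was seen over whole fragments and was not found in windows at the starts, which covered fewer fragments. In 300 bases centred between the 2 starts, or on the start of a single gene, it was -0.209 per 100 bases (n = 855 and n = 5860; adjusted p = 0.296). Fragment length differed little, at 0.994-fold (n = 987 and n = 5988; adjusted p = 0.792).

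The ETS motif CCGGAAG was found in the 300 bases at the starts of 29.0% of the 855 shared fragments with both genes found, 22.9% of 5860 single-gene fragments and 23.6% of both together. The difference was 6.14 ± 1.66 percentage points (SE, n = 855 and n = 5860; adjusted p = 0.0020 over the 9 motifs). With the window moved from between the starts to the left start it was 4.03 points (n = 855 and n = 5860; adjusted p = 0.104), and on the right start 5.79 points (adjusted p = 0.0023). These moved windows were chosen after the data were seen. CCAAT was found in 38.8% and 35.4%, the GC box in 69.8% and 70.3%, and TATAAA in 4.44% and 3.91% of shared and single-gene windows. None of these, nor any of the other 5 motifs, passed, with adjusted p from 0.292 to 0.886. A match is a description of the letters and not evidence of binding.

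Shared fragments were captured more deeply. The median was 1624 cis events for library a, 2933 for b and 2886 for c. Single-gene fragments had 1287, 2398 and 2362.5 in the same libraries. Over the sum of libraries the geometric mean was 1.18-fold higher, a log2 difference of 0.24 ± 0.05 (SE, n = 987 and n = 5988; adjusted p = 1.0e-05). It was higher in 3 of 3 libraries (0.25 ± 0.03 on the log2 scale, SD, n = 2). The groups overlapped widely, with quartiles of 4029 and 12251.5 events for shared and 3060.75 and 10949 for single-gene fragments. At least 1000 events were seen for 951 of the 987 shared fragments and 5566 of the 5988 single-gene fragments, and profiles were compared among these. How many probes each fragment had was not used here, so whether probe number goes with this difference in depth was not tested.

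**Figure D2:**
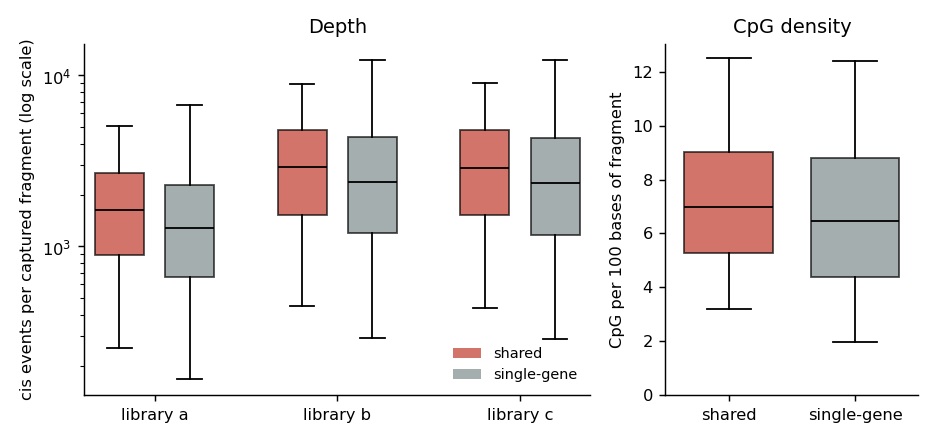
Left, cis events per captured fragment on a log scale in libraries a, b and c, and right, CpG per 100 bases of fragment, for shared (red) and single-gene (grey) fragments. Boxes span the quartiles with the median, and whiskers the 5th to 95th percentiles. The red medians lie above the grey in each library and in CpG density, with wide overlap.

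The division of contacts over distance was close between the groups. At matched depth, meaning within 10 classes of captured fragments ranked by events, the share of cis events from 2.5 to 100 kb differed by 0.340 percentage points (95% interval -0.0891 to 0.769, n = 951 and n = 5566; adjusted p = 0.296), with medians of 22.0% and 22.1%. From 100 kb to 1 Mb it differed by 0.167 points (-0.320 to 0.654). From 1 to 10 Mb the difference was -0.101 points (-0.537 to 0.334), and beyond 10 Mb -0.349 points (-0.972 to 0.274). None passed the threshold. With protein-coding names only, the difference was 0.617 ± 0.265 points (SE, n = 659 and n = 5566; adjusted p = 0.0920) from 2.5 to 100 kb and -0.796 ± 0.366 points (SE, n = 659 and n = 5566; adjusted p = 0.137) beyond 10 Mb, and neither passed.

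The fall of contacts from 10 kb to 1 Mb had a log-log slope of -0.936 ± 0.021 for shared and -0.936 ± 0.023 for single-gene fragments (SD, n = 2). Library a was steeper than b and c in both groups, at -0.951 for shared and -0.952 for single-gene fragments, while b and c lay between -0.921 and -0.920. The difference between library a and the others was thus larger than that between the groups. How evenly contacts fell on the 2 sides was compared next. The absolute log2 ratio of the 2 sides from 2.5 to 100 kb had medians of 0.34 and 0.30, and the difference was 0.02 ± 0.01 (SE, n = 951 and n = 5566; adjusted p = 0.335). From 10 to 100 kb it was 0.03 ± 0.02 (SE, n = 951 and n = 5566; adjusted p = 0.153), and neither passed the threshold.

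**Figure D3:**
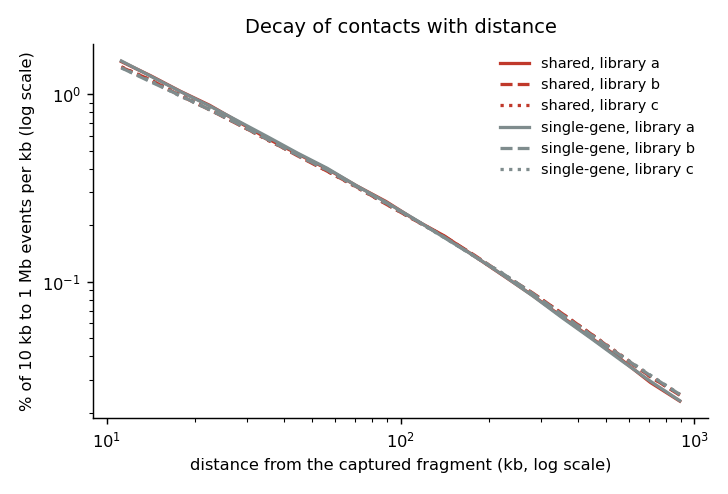
Percent of events from 10 kb to 1 Mb that fell in each kb (log scale) against distance in kb (log scale), averaged over captured fragments, for shared (red) and single-gene (grey) fragments in libraries a, b and c. The red and grey lines of a library lie over each other.

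Within the shared fragments the near share ranged widely. Its quartiles were 18.7% and 26.6%, with a lowest value of 8.29%. Orientation did not separate it. Divergent pairs had a median of 21.9%, overlapping starts 22.1% and the 11 same-strand pairs 26.1%, and divergent against the other assigned pairs differed by -0.957 points (95% interval -2.18 to 0.271, n = 722 and n = 104; adjusted p = 0.296). Among fragments with at least 5000 events, the highest shares were those of a histone fragment named for Hist1h2bq, Hist1h2ap and Hist1h2ao, of Cdkl1_4930512B01Rik and of Dclre1b_Ap4b1. The annotated starts of Hist1h2bq and Hist1h2ao lay outside the histone fragment. They were on called fragments 23.4 and 23.0 kb to its left, with 3590 and 2306 events. The histone fragment had 53.5%, 49.1% and 49.0% in libraries a, b and c. Of its 25386 events, 6084 lay on 4 called fragments at or within 5 fragments of a place that holds 30 bases identical to the captured fragment (a shared word), where contacts and reads of similar sequence cannot be told apart. Without them its shares were 38.2%, 33.6% and 33.5%, and it ranked 20 of 667 by the sum. Cdkl1_4930512B01Rik had 47.7%, 45.5% and 45.4%, and Dclre1b_Ap4b1, which pairs a DNA crosslink repair nuclease with an adaptor subunit, had 47.9%, 44.5% and 43.8%. Of the 3 lowest, Zfp943_Zfp942 had 8.40%, 8.09% and 8.42%. Senp8_Myo9a, on chromosome 9, was the shared fragment captured most deeply, with 175487 events, and had 10.5%, 9.03% and 8.99%. The third was 6330408A02Rik_Lig1, with Lig1 for DNA ligase I, at 9.88%, 10.1% and 8.82%. Of its 9885 events, 2499 fell on 1 fragment 155 kb away that shares a word of 30 bases with it, against 1.63 expected. Without called fragments at or near shared words, which was added after the data were seen, this fragment had 13.5%, 13.7% and 11.9% and was no longer among the 3 lowest, while Zfp943_Zfp942 had 10.5%, 9.86% and 10.3% and Senp8_Myo9a lost no events.

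The imbalance between the sides of a profile, as the size of the log2 ratio of right over left, had a median of 0.34 over the 951 fragments, an upper quartile of 0.59 and a highest value of 3.13. Among fragments with at least 5000 events, 2 of the 3 largest imbalances were at histone genes. Hist1h2bq_Hist1h2ap_Hist1h2ao had log2 ratios of right over left of -2.17, -2.26 and -2.26. Without its called fragments at or near shared words these were -0.95, -1.02 and -1.02, and it ranked 25 of 667, so its place rests on those events. Hist1h2ai_Hist1h2bl had 2.18, 1.94 and 2.18, and Wdr76_Mfap1a had -1.83, -1.84 and -1.91. Without such fragments they ranked 1 and 2, with 2.09 and -1.71 in the sum. The lowest at that depth were Prim2_1700001G17Rik, Kdm5a_Ccdc77 and Hgs_Arl16, where libraries lay between -0.19 and 0.14.

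At a divergent fragment 1 gene lies on each side, so the side of the longer gene was compared with the side of the shorter. From 2.5 to 50 kb the mean log2 ratio over 722 fragments was -0.02 ± 0.02 (SE, n = 722; p = 0.208, not adjusted), and the longer gene's side was higher in 341 of the 722. Among the 247 pairs whose lengths differed at least 4-fold, a split chosen after the data were seen, it was -0.07 ± 0.03 (SE, n = 247; p = 0.032, not adjusted). For 5445 single-gene fragments, the transcribed side over the other side gave 0.08 ± 0.01, or 1.05-fold.

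Contacts with other promoters were read from the 2 fragments on each side of every other captured fragment, the flanks, since no contacts between captured fragments themselves are in the table. Events there were divided by those expected from distance and from the depth of the fragment of origin. The ratio had a median of 1.70 over 823 shared fragments and 1.50 over 4757 single-gene fragments, each with at least 5 expected events. It was above 1 for 763 of the 823 shared fragments (92.7%) and for 4081 of the 4757 others (85.8%). The mean difference at matched depth was 0.206 ± 0.107 (SE, n = 823 and n = 4757; adjusted p = 0.191), which did not pass. It was 0.209 ± 0.008 over libraries (SD, n = 2), and higher in 3 of 3 libraries.

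A few ratios were extreme, the highest being 66.7 among shared and 251 among single-gene fragments. With ratios above the 99th percentile set to it, a choice made after the main result was seen, the difference was 0.211 (n = 823 and n = 4757; adjusted p = 1.9e-09). At the fragments 2 places away alone it was 0.236 (n = 725 and n = 4178; adjusted p = 9.4e-09). At those 1 place away it was 0.122 (n = 714 and n = 4127; adjusted p = 0.698). The direction was the same in each, while the side of the threshold was not. Without the 2 zinc finger pairs described below the difference was 0.121 (n = 821 and n = 4757; adjusted p = 0.235). That setting left out shared fragments only and kept the extreme single-gene ratios.

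Among well covered shared fragments the ratio after Zfp943_Zfp942 was highest at Gm2011_Mfsd8, with 4.15, 7.25 and 7.13 in libraries a, b and c. Ppp4r1lps_Rab22a followed with 3.23, 7.06 and 8.49, and then Exoc5_Ap5m1 with 3.76, 9.82 and 4.90. The libraries spread widely at each of these and overlapped between them, so their order is not settled. The lowest in the sum were Eef1b2_Ndufs1, with 0.246, 0.455 and 0.755, and Wdpcp_Mdh1, with 0, 0.901 and 0.432. Both were below 1 in every library, and their order is not settled either.

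**Figure D4:**
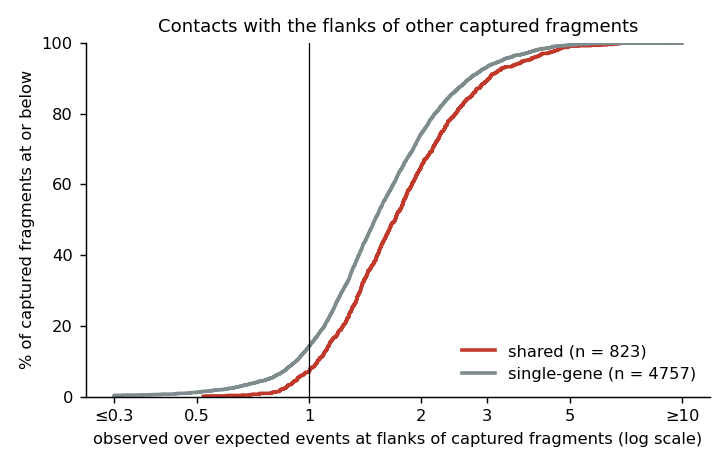
Percent of captured fragments at or below each ratio of observed over expected events at the flanks of other captured fragments (log scale, values outside 0.3 to 10 drawn at those limits), for 823 shared (red) and 4757 single-gene (grey) fragments. The red line lies to the right of the grey over most of its length, and the vertical line marks a ratio of 1.

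Whether shared fragments were contacted more by others was not settled. Seen from single-gene fragments, the pooled ratio was 1.38 at flanks of shared and 1.41 at flanks of single-gene fragments. Seen from shared fragments it was 2.20 and 1.53. The first of these rested on 1 fragment: Zfp943_Zfp942 gave 5429 of the 20217 events, against 5.29 expected. Without the 2 zinc finger pairs the ratios were 1.61 and 1.52, a difference that was not tested. Contacts received at the flanks, counted over every fragment of origin, differed by 0.342 ± 0.349 (SE, n = 871 and n = 5283; adjusted p = 0.416). Without those pairs the difference was 0.00204 (n = 869 and n = 5283), with fragments left out of the shared group only. With ratios above the 99th percentile set to it the difference was 0.0981 (n = 871 and n = 5283; adjusted p = 0.019). This measure and both settings were added after the data were seen.

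Single contacts were called where the events of a captured fragment and another fragment, from 2.5 kb to 1 Mb apart, exceeded the expectation from distance in the sum and in each library. A negative binomial test with Benjamini-Hochberg adjustment was applied to all 27949941 pairs, of which 1047 were called (0.00375%). Of the 6517 captured fragments tested, 458 had at least 1 called contact (7.03%). Among the 951 shared fragments 78 did (8.20%), and among the 5566 single-gene fragments 380 did (6.83%). At matched depth the difference was 1.31 ± 1.01 percentage points (SE, n = 951 and n = 5566; adjusted p = 0.335). It depended on the libraries: without library a it was 2.66 points (n = 951 and n = 5566; adjusted p = 0.036), without b -0.370 and without c -0.528. With the dispersion of the test estimated after leaving out the highest 1% of pairs in place of 0.1% it was 4.75 points (n = 951 and n = 5566; adjusted p = 0.011). A higher share in shared fragments is therefore not settled.

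The 185 called contacts of shared fragments came unevenly from the 78 fragments. The 14 histone fragments gave 46, the 2 zinc finger pairs 37, and 69 other fragments the remaining 102. Of the 185, 53 lay within 5 fragments of a place that shares a word of 30 bases with the fragment of origin, so that reads of similar sequence and contacts cannot be told apart there. The other 132 lay a median of 236 kb away, and 57 of them (43.2%) lay within 2 kb of an annotated start of a protein-coding gene. For single-gene fragments it was 168 of 577 (29.1%), and of all fragments tested with shared ones, at any distance, 14.0% lay that close to a start. These shares were not tested.

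**Figure D5:**
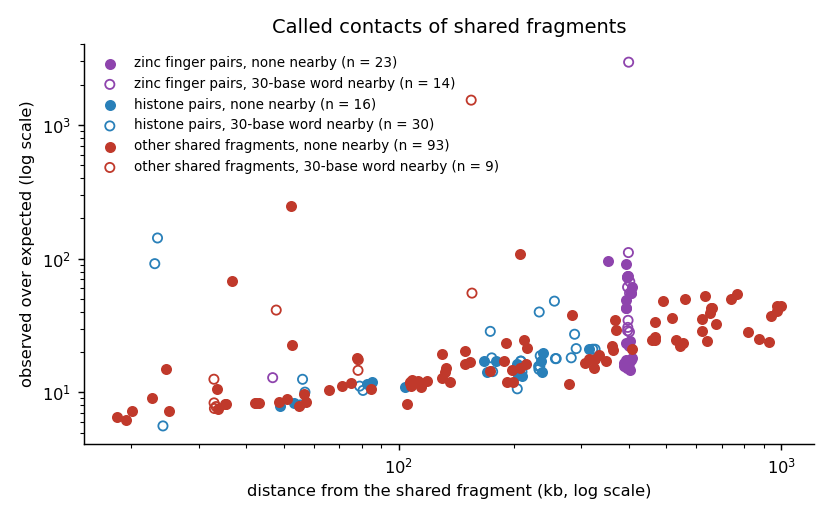
Observed over expected events (log scale) against distance in kb (log scale) for the 185 called contacts of shared fragments. Open points lie within 5 fragments of a shared 30-base word, filled points do not. The purple column near 400 kb holds the contacts between the 2 zinc finger pairs, and the highest purple point is the near copy at 2950 times its expectation.

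The zinc finger pairs lie on chromosome 17 and hold genes for KRAB-type zinc finger proteins, a family that grew by duplication. Zfp943_Zfp942 lies at chr17:22099094-22099433 and Zfp758_Zfp944 at chr17:22498341-22498790. From the first, 1276, 1990 and 1939 events in libraries a, b and c fell on 1 fragment 399 kb away, next to the second pair, where 1.76 were expected in the sum. That fragment of 339 bases matched the captured fragment of 340 bases at 336 of 339 aligned positions. Whether these events are contacts or reads of a second copy caught by the same probes cannot be told apart. Beyond the reach of shared words, 14 further contacts of Zfp943_Zfp942 lay between 352 and 408 kb away, and 13 of them overlapped Zfp944 or Zfp758. The 13 lay on both sides of the fragment of 339 bases. If the probes caught that second copy, its own local contacts would fall there too. Contacts of the captured fragment and of the copy therefore cannot be told apart. The other, at 352 kb with 188 events, shares a word with the Zfp758_Zfp944 fragment. From Zfp758_Zfp944, 9 contacts fell up to 407 kb away, inside Zfp942 and Zfp943, on 7 to 15 events each. The 9 lay on both sides of the Zfp943_Zfp942 fragment, and the called contacts between them lay near a shared word. In this direction too, contacts of the captured fragment and of a similar copy cannot be told apart. Both fragments also had near shares among the lowest, at 8.29% and 9.74% in the sum.

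The histone fragments lie in clusters that hold many copies of the core histone genes, and of the 14, 10 were divergent pairs, 1 was on the same strand and 3 were not assigned. On 13 with enough events, the near share had a median of 33.6%, beside 22.0% over all shared fragments, and the lowest was 20.0%. The flank ratio had a median of 2.23 beside 1.70. Contacts were called for 7 of the 13, beside 8.20% of shared fragments. Histone genes on single-gene fragments had a median near share of 27.7% and a flank ratio of 2.11, and 18 of 35 had a called contact. Of the 46 called contacts, 43 lay within 5 kb of another captured histone fragment. The share of all tested fragments that lay so close was not counted, so the 43 have no background beside them. Captured fragments are dense there, with 3 to 13 others within 100 kb of a histone fragment, beside a median of 2 over all shared fragments. Sequence was shared within the family, since 13 of the 14 held a 30-base word in common with another, and 16 of the 46 calls were free of shared words nearby.

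Of these 16, 6 came from Hist1h2bj_Hist1h2ag, at chr13:22134608-22135057. They fell 204 to 238 kb to the left, near Hist1h2bq and Hist1h2br, on 18 to 23 events each. Hist1h2ak_Hist1h2bn gave 3, and these fell on 3 of the same fragments. The 6 targets lay 2382, 3537 and 4376 bases from the start of Hist1h2bq, and at the same distances from that of Hist1h2br. The word search compared targets with the fragment of origin and not with each other. Whether the 6 are separate contacts or reads of copied sequence was therefore not tested. Hist1h2ad_Hist1h2bf gave 3, between 167 and 180 kb to the right, near Hist1h1c, Hist1h3c and Hist1h3b. Hist1h2af_Hist1h3g gave 3 and Hist1h2ai_Hist1h2bl gave 1, at 314 kb. Each of the 16 was above expectation in 3 of 3 libraries, which the calling required.

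Outside these families the strongest contact without a shared word nearby came from Tmem67_Rbm12b2, at chr4:12015041-12015253. Its target was a fragment at chr4:12067385-12067719, which overlaps an exon and a start of Rbm12b, a relative of Rbm12b2. It held 267, 440 and 424 events, 249 times the expectation, at 52.4 kb, and the next fragment held 103 in all. No 30-base word of the captured fragment was found within 5 fragments, and the best local alignment of the 2 fragments matched 36 of 44 aligned bases. The annotated start of Rbm12b2 lies outside the captured fragment, 1432 bases from that of Tmem67. Sequence at that start was not compared with the target, so reads of similar sequence from there were not tested for. The fragment 1110020A21Rik_Ppm1b had 147, 368 and 336 events 36.7 kb away at an annotated start of Ppm1b itself, 67.8 times the expectation. H2D1_H2L, of the major histocompatibility complex, had 5, 11 and 7 events near the start of H2-Q10 in the same complex, 208 kb away. The other contacts with the highest ratios rested on 6 to 10 events in the sum.

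Hmmr_Nudcd2, with Hmmr for a hyaluronan receptor of the mitotic spindle, had 5 called contacts. Of these, 4 lay within 3 kb of the start of Mat2b, 35.2 to 43.1 kb to the left, and 1 lay in Ccng1, for cyclin G1, 20.1 kb to the right. Ratios ran from 7.23 to 8.29 on 24 to 35 events. Wdr76_Mfap1a had 147 events at a fragment of Mfap1b, the relative of Mfap1a, 33.6 kb away, at 7.52 times the expectation, while its 4 other called contacts lay near shared words.

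Pairs known to share a promoter are named next with the values of each library. Brca1 and Nbr1 are a breast cancer tumour suppressor and an autophagy receptor. Their fragment had 938, 1601 and 1495 events, near shares of 27.6%, 25.4% and 24.6%, and flank ratios of 1.28, 1.10 and 1.26. Prkdc, for the catalytic subunit of DNA-dependent protein kinase, and Mcm4, for a subunit of the replicative helicase, had near shares of 20.4%, 19.1% and 19.5% and flank ratios of 2.94, 5.83 and 4.02. Prkdc_Mcm4 was thus lower in near share and higher in flank ratio than Brca1_Nbr1 in every library.

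Npat, an activator of histone transcription, and Atm, a DNA damage kinase, gave 51061 events in all, flank ratios of 3.48, 2.88 and 2.32, and 1 called contact 348 kb away. Timm8b_Sdhd, Npat_Atm and Senp8_Myo9a lie in a deeply captured stretch of chromosome 9 with 18 shared and 140 single-gene fragments. Trp53_Wrap53 had near shares of 23.3%, 18.7% and 19.3%, and more contacts to the right than to the left, by log2 1.16, 1.33 and 1.23. Afmid_Tk1, with Tk1 for thymidine kinase, had 35.4%, 30.6% and 30.5%, and 2 called contacts in Tnrc6c, 115 and 119 kb away. Hspd1 and Hspe1, for the mitochondrial chaperonin and its partner, have nearest annotated starts that overlap, 111 bases apart. Their near shares were 35.9%, 26.9% and 26.9%, with library a well above the others. Acot13_Tdp2 had the fewest events of the named pairs, 241, 382 and 425, too few for a flank ratio.

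Over the list of 23 shared fragments with genes of known divergent pairs, the near share had a median of 23.1% and reached 36.1%. The flank ratio had a median of 1.73, and 2 of 23 had a called contact. Over all shared fragments these values were 22.0%, 1.70 and 8.20%. The known pairs were therefore close to the rest in each.

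Genes of DNA replication and repair, with a list of known members, were named on 45 shared fragments (4.56%) and 68 single-gene fragments (1.14%). Their median near share was 20.0% on shared and 20.5% on single-gene fragments, and 6 of 45 shared and 5 of 62 single-gene fragments had a called contact, beside 8.20% of all shared and 6.83% of all single-gene fragments. Genes for mitochondrial proteins were named on 55 (5.57%) and 127 (2.12%), with near shares of 22.0% and 20.8%, and 2 of 55 and 4 of 122 had a called contact. Genes for aminoacyl-tRNA synthetases, which charge tRNAs with amino acids, were named on 11 and 25, and 0 of 10 and 1 of 25 tested had a called contact. A shared fragment has 2 chances to hold a listed gene, so these shares describe the lists and were not tested. On 308 of the 987 (31.2%) a partner name was that of an RNA gene or an uncharacterised one. Their near share of 21.3%, flank ratio of 1.70 and 25 called of 292 lay beside those of all shared fragments.

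A gene of the erythroid list was held by 3 shared fragments (0.304%) and 58 single-gene fragments (0.969%). Uros, for uroporphyrinogen III synthase of haem synthesis, shared its fragment with Bccip, with near shares of 29.1%, 24.8% and 26.1%. Add1, for the membrane skeleton protein adducin, was paired with a miRNA gene and had 35.6%, 30.4% and 30.7%. Slc11a2, for an iron transporter, was paired with Gm5475 and had 35.7%, 33.0% and 33.0%. The 3 lay above the median of 22.0% in every library, as did the 58 single-gene fragments by their median of 33.1%. A contact was called for 0 of the 3, too few to set against the 8.20% of all shared fragments, and for 14 of the 58 single-gene fragments, beside 6.83% of all single-gene fragments.

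Near shares of the pairs with the closest starts are given by orientation. Dhrs1_Nop9 and Hcfc1r1_Thoc6, with divergent starts 3 bases apart, had near shares of 21.6% and 21.0% in the sum, and Galk2_Cops2, 9 bases apart, had 15.0%. Among overlapping starts, Mrps26_4930473A02Rik, Zdhhc4_0610040B10Rik and Pdia3_Catsper2, 7 to 17 bases apart, had 17.8%, 21.3% and 26.6%. Among same-strand pairs, Fastkd5_Ubox5, Adat3_Scamp4 and Haus3_Poln, 0 to 3 bases apart, had 21.4%, 30.2% and 15.4%.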

How the data were processed

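The assay was Capture-C in its nuclear-titrated form, applied to promoters in 3 libraries of selected erythroid cells. The authors trimmed and aligned reads to mm9 (the processing notes name Trim Galore and Bowtie, versions not given in the sources used here), removed duplicates and counted unique ligation events. The deposited signal values are events per 100000 cis events of a captured fragment in a library. Here each fragment's smallest value in a library was taken as 1 event, and 100% of values then came out whole within 0.01. The list of captured fragments gives names and positions, and 2 listed ends missed a cut site and were taken from the mm9 digest. Names that occur more than once (16 fragments) were left out.

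Members, gene lists and tests were chosen with earlier results of these data known. Genes were placed with GENCODE vM1 on mm9, with RefSeq synonyms for names, and 1844 of 1986 gene names were found. The annotated start nearest the fragment was used, or that nearest its middle when several lay inside. Contacts 2.5 kb to 1 Mb away were compared with an expectation by distance in 50 bins; a captured fragment's own 2 neighbours on each side were not counted as flanks. Groups were compared by least squares with 10 depth classes as fixed effects and errors clustered on 1 Mb blocks (statsmodels 0.14.6), with Benjamini-Hochberg adjustment. Depth, length, CpG density, motifs and contacts received were compared without depth classes. Calls used a negative binomial whose dispersion left out the highest 0.1% of pairs in each bin. Fits and calls were tested on simulated data. Fragments were named by rule: known pairs, erythroid genes, the 8 with most calls free of a shared word, the 3 highest and 3 lowest in near share and imbalance, and the 3 shortest start distances per orientation. Gm2011_Mfsd8, Ppp4r1lps_Rab22a, Exoc5_Ap5m1, Eef1b2_Ndufs1, 1110020A21Rik_Ppm1b, H2D1_H2L and Hist1h2af_Hist1h3g were named after their values were seen. One known pair is not reported here. The plan was to print whole fragments of at most 300 bases; the stretch between the starts was printed instead, for pairs chosen afterwards. The alternatives tried are given at the end.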

Additional observations from a re-analysis of the deposited data

How the results depend on the processing

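Depth and fragment CpG density passed the threshold, and depth did so under each alternative run, with 0.234 to 0.246 on the log2 scale when a library was left out. CpG density turned to -0.209 in 300 bases at the starts. The share of fragments with a called contact ranged from -0.528 to 2.66 points when a library was left out. It was -0.453 points with no pairs left out of the dispersion, 4.75 with the highest 1% left out and -0.0481 with a Poisson test. The flank ratio passed at fragments 2 places away (0.236) and with extreme ratios capped (0.211), as did contacts received at the flanks when capped (0.0981). Agreement between libraries differed by 0.0199 without the depth term and by 0.0045 with it. The share from 1 to 10 Mb turned to 0.0109 without the depth term and 0.0190 with length, GC and crowding added, and the share beyond 10 Mb to 0.0380 with the same terms. The side of the longer gene gave -0.0675 in pairs at least 4-fold apart in length, with an unadjusted p of 0.032 (n = 247), in a split chosen after the data were seen. The ETS motif did not pass on the left start (4.03 points). The other 84 of 100 alternative values kept direction and side of the threshold. The cause of these changes was not tested. No paired analysis was possible because all libraries form 1 group, which leaves no libraries to pair across groups. Shared and single-gene fragments were compared within each library. Called contacts at long distance rest on few events, and the spread over libraries rests on 2 values, with libraries b and c counted as 1 from their counts alone.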
